A study of Arabidopsis thaliana with 6 samples.

Results

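The NPF family of Arabidopsis thaliana, also called NRT1/PTR, comprises membrane transporters that carry nitrate, peptides, chloride, glucosinolates or plant hormones. Its 53 genes were taken by gene identifier and followed through a comparison of the pkl mutant with the wild type (WT). A row of the table of loci lower in pkl was found for 16 of them, and 37 had none. The study sequenced total RNA of whole seedlings, 14 days old and grown in long days, in 3 libraries of pkl and 3 of WT. PKL (PICKLE) is a CHD3-type protein that remodels chromatin. The labels give pkl by its name alone, without the allele or the background line, and give no treatment for either genotype. They do not say whether replicates were separate cultures. The authors' table held 1 FPKM value per genotype (fragment counts corrected for transcript length and sequencing depth), so values here carry no error between replicates, and library depth is unknown.

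NPF proteins are carriers of the major facilitator superfamily, and most that have been studied couple their substrate to protons. Plants use them to take nitrate up from soil, load it into the xylem, move it between leaves through the phloem and release it from the vacuole. Other members move dipeptides, glucosinolates, abscisic acid or gibberellin, so family membership alone does not give the cargo. The family is divided by sequence into subfamilies NPF1 to NPF8.

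All 2896 loci of the table were called by the authors at a q-value under 0.05 and all were lower in pkl, so a gene without a row is only not listed here, and nothing is said of its direction. The q-values imply 19554 tests, of which these loci are 14.8%. The PKL transcript itself was at 6.79 FPKM in pkl and 19.2 FPKM in WT, 2.84-fold lower. Markers of both organs of the seedling were among the listed loci. The marker lists were set with earlier results of these data known. Every listed marker is lower in pkl because the table holds lower loci alone. Of 19 root markers 7 were listed, with a summed level of 63.9 FPKM in pkl and 115 FPKM in WT. The root sum includes CASP2, with 25.2 FPKM in pkl and 35.0 FPKM in WT, whose row names 2 genes. Of 10 leaf markers 6 were listed, with 13648 FPKM in pkl and 23779 FPKM in WT. No listed marker was at 0 in either genotype. The part of either organ's share in the NPF values was not tested. In whole seedlings, fewer cells of a type and less RNA per cell cannot be told apart.

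NPF2.3, NPF2.4 and NPF2.5, 3 of the 7 genes of an NPF2 group on chromosome 3, were listed, and their coding sequences show how alike such copies are. How well reads tell them apart was not tested. The stretches below are 90 coding bases of NPF2.3, NPF2.4 and NPF2.5 from a single exon each. They were taken where the likeness of NPF2.4 to NPF2.5 is near its median. They are read from RefSeq's TAIR10.1 genome on the plus strand, 5′ to 3′, at chr3:16771490-16771579, chr3:16779670-16779759 and chr3:16783203-16783292. Capitals mark bases that differ from NPF2.5.
NPF2.3: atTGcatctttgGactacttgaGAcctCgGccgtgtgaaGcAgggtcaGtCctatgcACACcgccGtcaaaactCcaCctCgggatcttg
NPF2.4: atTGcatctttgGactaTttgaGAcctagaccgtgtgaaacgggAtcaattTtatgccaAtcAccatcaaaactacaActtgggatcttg
NPF2.5: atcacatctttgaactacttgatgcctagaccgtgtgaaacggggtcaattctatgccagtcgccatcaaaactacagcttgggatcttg
NPF2.4 differs from NPF2.5 at 11 of these 90 bases and NPF2.3 at 19. Over the whole coding sequence, NPF2.4 and NPF2.5 are 86.5% identical, the closest pair among the 16 listed members. For none of the 16 did another gene's longest annotated coding sequence reach 95% identity across 80% of the member's coding length in a single alignment. Copies outside these coding sequences were not searched.

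Of the 53 genes, 16 (30.2%) were listed as lower in pkl, against 14.8% of all tests. The members were chosen with earlier results of these data known, and the difference in share was not tested. Which of the 37 others had been tested is not known, and all are counted in the 53. At least 2-fold lower were 3 of the 53 members, NPF5.7, NPF6.4 and NPF8.2, where 3.83% of all tests reached that size. With a pseudocount of 1 FPKM, NPF8.2 alone stayed at 2-fold, since all 3 had low levels. The median listed member was 1.62-fold lower in pkl (range 1.22 to 3.70), and the median over all 2896 loci was 1.52-fold. At the 2-fold cut the order was reversed, with 18.75% of the 16 listed members and 25.8% of all 2896 loci. Levels of the 16 ran between 0.392 and 38.4 FPKM in pkl and between 0.749 and 68.4 FPKM in WT. Their median WT level of 8.48 FPKM was below the 16.8 FPKM of all listed loci. In the authors' deposited table, 10 of the 16 (62.5%) had the smallest p-value listed, 5e-05, as had 49.3% of all loci.

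**Figure D1:**
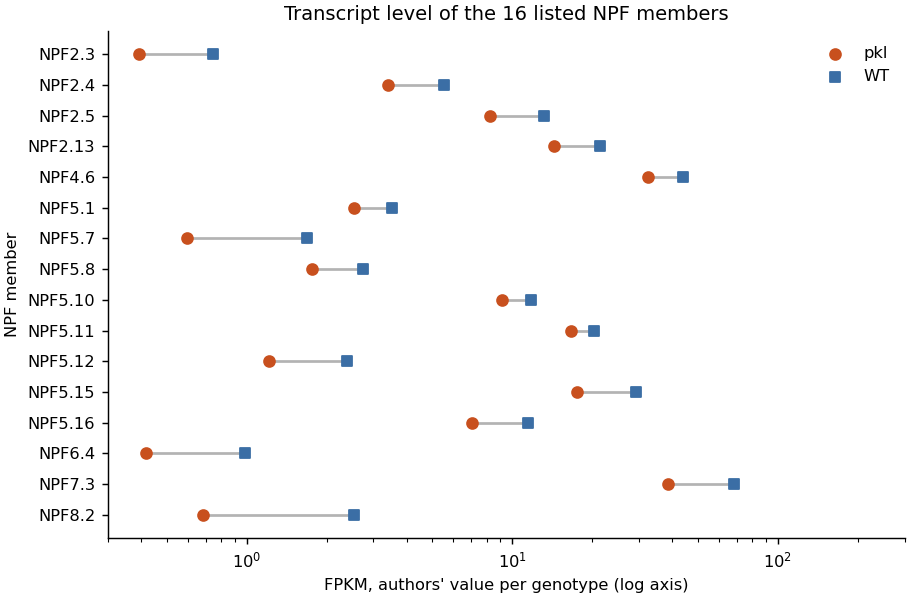
Level of each of the 16 listed NPF members in FPKM on a log axis, 1 value per genotype, with pkl as circles and WT as squares. Every circle lies left of its square because the table holds lower loci alone, and the distance is widest for NPF8.2 (0.683 FPKM in pkl, 2.52 FPKM in WT).

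The listed members were spread over 6 of the 8 subfamilies. NPF5 held 8 of the 16, out of 16 members (50%), and NPF2 held 4 out of 14 (28.6%). NPF4 had 1 of 7, NPF6 had 1 of 4, NPF7 had 1 of 3 and NPF8 had 1 of 5. NPF1, with 3 members, and NPF3, with 1, had no row. Over all tests the listed share was 14.8%, and most subfamilies are small. The difference between subfamilies was not tested. Among the 37 genes without a row were the glucosinolate carriers NPF2.10 (GTR1) and NPF2.11 (GTR2), the nitrate excretion carrier NPF2.7 (NAXT1), NPF7.2 (NRT1.8), which takes nitrate back out of the xylem, and the peptide carriers NPF8.1 (PTR1) and NPF8.3 (PTR2). The others were NPF1.1 to NPF1.3, NPF2.1, NPF2.2, NPF2.6, NPF2.8, NPF2.9, NPF2.12, NPF2.14, NPF3.1, NPF4.1 to NPF4.5, NPF4.7, NPF5.2 to NPF5.6, NPF5.9, NPF5.13, NPF5.14, NPF6.1 to NPF6.3, NPF7.1, NPF8.4 and NPF8.5. Coding sequences of the 16 listed members measured 1617 bases (NPF5.11) to 1863 bases (NPF2.13), in 3 exons (NPF5.8) to 6 exons (NPF7.3).

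**Figure D2:**
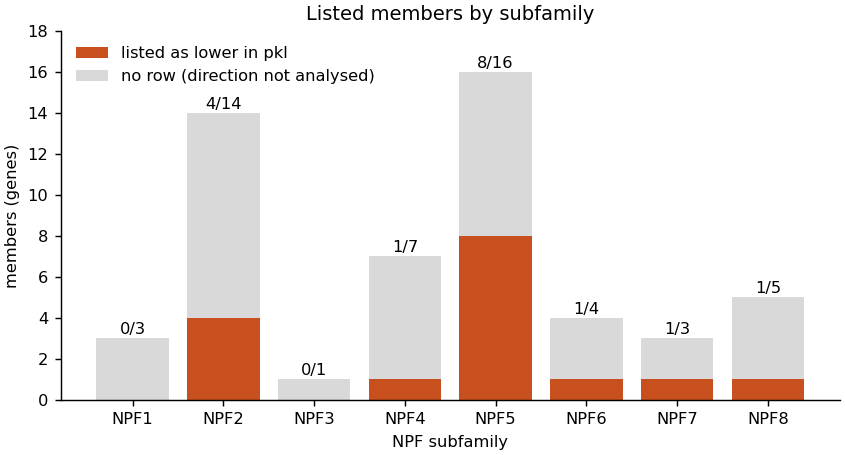
Number of NPF genes per subfamily, split into those listed as lower in pkl and those without a row. NPF5 has 8 of 16 genes listed, and NPF1 and NPF3 have none, where 14.8% of all tests were listed.

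The 2 most abundant listed members were NPF7.3 and NPF4.6, both known as nitrate carriers of the root. NPF7.3 (NRT1.5, AT1G32450) loads nitrate into the root xylem for transport to the shoot. It stood at 38.4 FPKM in pkl and 68.4 FPKM in WT, 1.78-fold lower, and was the most abundant listed member in both genotypes. Its locus spans chromosome 1, positions 11712052 to 11719970, and reaches 3111 bases into the neighbouring pyruvate kinase gene PKp3, although the row names NPF7.3 alone. The part of PKp3 reads in the NPF7.3 value was not tested.

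NPF4.6 (NRT1.2, also AIT1), a low-affinity nitrate carrier of the root epidermis that also imports abscisic acid, was the next in level. It had 32.3 FPKM in pkl and 43.8 FPKM in WT, 1.36-fold lower. NPF2.13 (NRT1.7) loads nitrate into the phloem of older leaves for use in younger ones. It had 14.3 FPKM in pkl and 21.5 FPKM in WT, 1.5-fold lower. Both lie on chromosome 1, NPF4.6 at positions 26296676 to 26300472 and NPF2.13 at 26316027 to 26320220, with NPF2.14, which had no row, between them. All 3 carriers had the smallest q-value of the authors' deposited table, 0.000338.

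Members of the NPF2 group on chromosome 3 fell by similar folds at very different levels. NPF2.5 (AT3G45710), a chloride carrier of the root, was at 8.24 FPKM in pkl and 13.2 FPKM in WT, 1.6-fold lower. NPF2.4 (AT3G45700), which takes part in loading chloride into the root xylem, was at 3.39 FPKM in pkl and 5.51 FPKM in WT, 1.62-fold lower. NPF2.3 (AT3G45680), which contributes to nitrate transfer to the shoot under salt, was at 0.392 FPKM in pkl and 0.749 FPKM in WT, 1.91-fold lower. The loci of NPF2.4 (positions 16778713 to 16781198) and NPF2.5 (positions 16782643 to 16784735) follow each other on the same strand. NPF2.3 had the lowest level of the 16 in both genotypes, and its q of 0.0346 in the authors' deposited table was the largest among them.

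Vacuolar nitrate carriers formed part of the NPF5 members. NPF5.11, NPF5.12 and NPF5.16 are known in Arabidopsis to release nitrate from the vacuole. NPF5.11 (AT1G72130) had 16.6 FPKM in pkl and 20.3 FPKM in WT, which at 1.22-fold was the smallest difference of the 16 (q = 0.0216 in the authors' deposited table). NPF5.16 (AT1G22550) had 7.04 FPKM in pkl and 11.4 FPKM in WT, 1.63-fold lower. NPF5.12 (AT1G72140) had 1.21 FPKM in pkl and 2.38 FPKM in WT, 1.96-fold lower. The 3 genes thus differed in fold, from the smallest of the 16 to just short of 2-fold, and the least abundant had the largest fold.

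The other listed NPF5 members included the most abundant one of the subfamily. NPF5.15 (AT1G22570) stood at 17.5 FPKM in pkl and 29.2 FPKM in WT, 1.66-fold lower. NPF5.10 (AT1G22540) stood at 9.13 FPKM in pkl and 11.8 FPKM in WT, 1.29-fold lower (q = 0.0324 in the authors' deposited table). The levels of NPF5.10 and NPF5.16 were close in WT and further apart in pkl, where that of NPF5.16 was the lower. Both are listed with the same interval, chromosome 1, positions 7963935 to 7968721, and their 3′ ends face each other with 63 bases between them. How well reads of NPF5.10 and NPF5.16 were told apart was not tested.

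Low levels were found for the other 3 of the subfamily. NPF5.8 (AT5G14940), which has been linked to the export of nicotianamine, a metal chelator, had 1.76 FPKM in pkl and 2.73 FPKM in WT, 1.55-fold lower. NPF5.1 (AT2G40460) had 2.52 FPKM in pkl and 3.51 FPKM in WT, 1.39-fold lower. NPF5.7 (AT3G53960) had 0.594 FPKM in pkl and 1.68 FPKM in WT, which at 2.84-fold was the second largest difference of the 16. Its locus is on chromosome 3, positions 19978122 to 19980959. The authors' deposited table gives it a q of 0.000338, against 0.00942 for NPF5.8 and 0.0181 for NPF5.1.

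The largest difference was in a peptide carrier. NPF8.2 (PTR5, AT5G01180), which transports dipeptides and tripeptides across the plasma membrane, had 0.683 FPKM in pkl and 2.52 FPKM in WT, 3.70-fold lower. By fold it was number 165 of the 2896 loci. Its interval on chromosome 5, positions 57990 to 63976, also takes in AT5G01170 and the non-coding AT5G01175, and the part of their reads in its value was not tested. NPF6.4 (NRT1.3, AT3G21670), a relative of the nitrate sensor NPF6.3, was at 0.417 FPKM in pkl and 0.988 FPKM in WT, 2.37-fold lower. The authors' deposited table gives it a q of 0.00245, and gives NPF8.2 one of 0.000338. NPF6.3 had no row.

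By the median of each range of level, members with low levels had the larger folds, as had loci in general. The 2 members below 1 FPKM in WT, NPF2.3 and NPF6.4, had folds of 1.91 and 2.37, both below the median of 2.69 for the 67 loci in that range. The 5 members between 1 and 5 FPKM in WT had a median fold of 1.96, against 2.00 for the 552 loci in that range. Single members there ran from 1.39-fold to 3.70-fold. The 4 members between 5 and 20 FPKM had a median of 1.61, against 1.5 for 968 loci. The 5 members above 20 FPKM had a median of 1.5, against 1.4 for 1309 loci. Low loci need a larger fold to pass the authors' test, so these medians describe listed loci alone.

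**Figure D3:**
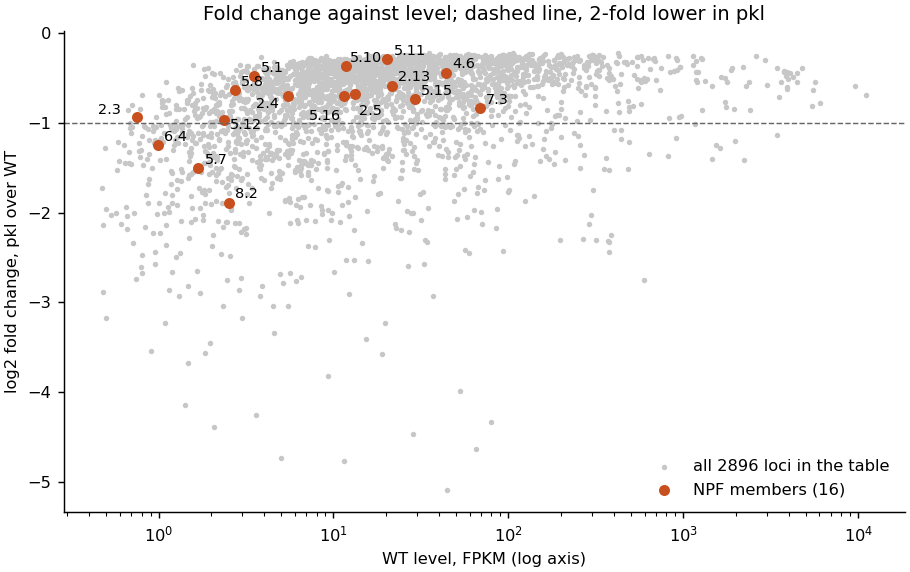
The log2 fold change of pkl over WT against the WT level in FPKM (log axis) for all 2896 loci in grey and the 16 NPF members in orange, labelled by their NPF number. Members at or beyond the dashed line of 2-fold (NPF6.4, NPF5.7 and NPF8.2) all lie below 5 FPKM in WT.

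Many of the listed members are neighbours on the chromosome. There were 8 groups of members within 20 kb of each other, holding 25 genes, of which 10 (40%) were listed. Of the 28 genes that lie alone, 6 (21.4%) were listed. The share over all tests was 14.8%. The difference between grouped and lone genes was not tested. All 3 genes of the group NPF5.10, NPF5.16 and NPF5.15 on chromosome 1 were listed, 2 of 4 in the group from NPF5.14 to NPF5.12, 2 of 3 in the group from NPF4.6 to NPF2.13, and 3 of 7 in the NPF2 group on chromosome 3. The other 4 groups, of 2 genes each, had no row.

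**Figure D4:**
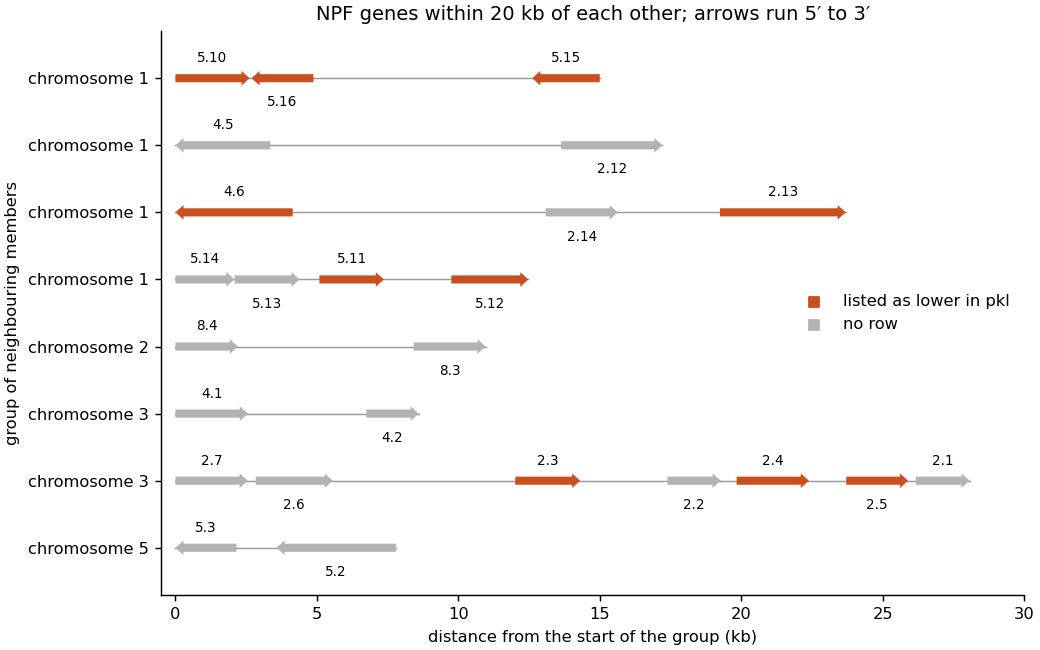
The 8 groups of NPF genes within 20 kb of each other, drawn to scale from the start of each group, with arrows from 5′ to 3′ and listed genes in orange. Orange genes are in 4 of the 8 groups, and in the topmost all 3 genes are orange.

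Closeness in sequence did not go with listing in every case. For 8 of the 16 listed members the most similar coding sequence of the family belonged to another listed member, as with NPF5.15 and NPF5.16 at 81.5% identity. NPF5.15 and NPF5.16 were also alike in fold, 1.66 and 1.63. For the other 8 the most similar member had no row. The most similar member was thus listed for 50% of the listed members, against 11 of the 37 (29.7%) without a row, and the difference was not tested. The 8 with a listed closest member were NPF2.3 to NPF2.5, NPF5.10 to NPF5.12, NPF5.15 and NPF5.16. All of them lie in the groups of neighbouring members, and pairs closest to each other count for both members. NPF5.8 is 76.0% identical to NPF5.9, which had none, and NPF8.2 is 72.0% identical to NPF8.1 (PTR1), which had none.

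The sequence before the gene start is shown for NPF2.4 and NPF2.5, the listed pair with the most similar coding sequences. In the 250 bases upstream of NPF2.4 and NPF2.5, the longest run found in both is 16 bases, shown in capitals. The windows are chr3:16778463-16778712 and chr3:16782338-16782587 of RefSeq's TAIR10.1, plus strand, 5′ to 3′, and they end at the base before the annotated start.
NPF2.4: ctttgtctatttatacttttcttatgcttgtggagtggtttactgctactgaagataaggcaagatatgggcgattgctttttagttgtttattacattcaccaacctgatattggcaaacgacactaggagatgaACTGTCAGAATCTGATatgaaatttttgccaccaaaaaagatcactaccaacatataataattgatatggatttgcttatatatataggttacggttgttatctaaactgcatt
NPF2.5: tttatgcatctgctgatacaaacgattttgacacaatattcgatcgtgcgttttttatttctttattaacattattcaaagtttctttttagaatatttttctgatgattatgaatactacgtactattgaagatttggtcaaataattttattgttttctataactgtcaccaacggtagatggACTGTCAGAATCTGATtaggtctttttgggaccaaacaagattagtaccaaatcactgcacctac
The run begins 114 bases before the start of NPF2.4 and 65 bases before that of NPF2.5. The run was chosen as the longest one the pair shares. The upstream windows of the pair are 48.9% identical in a global alignment, far less than their coding sequences. The window of NPF2.3 is 52.1% identical to that of NPF2.5 and 49.8% to that of NPF2.4. By the same alignment, coding sequences of all pairs of the 16 listed members had a median identity of 52.2% and a minimum of 49.8%.

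Motifs known for regulators of nitrate and light responses were then sought in the same windows of all 16 and of all 27443 protein-coding genes, on both strands. The G-box CACGTG was present in 2 of 16 listed members and in 6.49% of all windows. The I-box GATAAG was present in 3 of 16, NPF2.4, NPF5.7 and NPF5.8, and in 12.3% of all windows. The TGA factor core TGACG, in 18.6% of all windows, and GAATATTC, a site of the NIGT1 repressors in 0.860% of all, were in no listed member. These motifs do not overlap one another in the listed windows. The G-boxes were those of NPF2.3 and NPF5.12, whose windows chr3:16770638-16770887 and chr1:27141515-27141764 (both plus strand) are shown with the motif in capitals.
NPF2.3: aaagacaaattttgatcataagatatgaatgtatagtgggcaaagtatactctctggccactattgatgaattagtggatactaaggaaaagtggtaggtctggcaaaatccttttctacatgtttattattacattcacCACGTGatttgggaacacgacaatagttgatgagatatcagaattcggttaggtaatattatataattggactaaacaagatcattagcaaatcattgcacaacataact
NPF5.12: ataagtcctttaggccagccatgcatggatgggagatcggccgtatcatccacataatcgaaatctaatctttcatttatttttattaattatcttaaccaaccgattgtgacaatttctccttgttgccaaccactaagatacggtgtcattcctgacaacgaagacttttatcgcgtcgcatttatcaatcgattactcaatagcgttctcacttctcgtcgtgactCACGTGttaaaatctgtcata
The motif begins 110 bases before the start in NPF2.3 and 21 bases before it in NPF5.12. NPF2.3 and NPF5.12 were lower by 1.91-fold and 1.96-fold, and both had low levels.

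Genes that sense or relay nitrate were among the lower ones too. Of 27 genes of nitrate signalling, 9 (33.3%) were listed as lower, against 14.8% of all tests, with a median of 1.49-fold. This list was set with earlier results of these data known, and its share was not tested or read further. BT1, of a BTB and TAZ domain pair that nitrate induces, had 123 FPKM in pkl and 350.1 FPKM in WT, 2.86-fold lower. Its relative BT2 had 268 FPKM in pkl and 420.2 FPKM in WT, 1.57-fold lower. Among regulators of transcription, HHO1, a NIGT1-type repressor, had 8.51 FPKM in pkl and 15.6 FPKM in WT, 1.83-fold lower. NLP2, of the family of nitrate-sensing activators, had 1.57 FPKM in pkl and 2.51 FPKM in WT, 1.6-fold lower. The activator NLP7, the repressors HRS1, LBD37 and LBD38, and the kinase CIPK8 were lower by smaller folds, from 1.32 upward.

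A few other genes of nitrogen transport and metabolism were listed. Their shares were below the 14.8% of all tests, and a low share was not read further. Of 15 nitrate carriers and channels outside the family, 2 (13.3%) were listed. The vacuolar nitrate exchanger CLCA had 26.9 FPKM in pkl and 59.7 FPKM in WT, 2.22-fold lower, and the anion channel SLAH3 had 8.73 FPKM in pkl and 14.3 FPKM in WT, 1.64-fold lower. None of the 7 NRT2 high-affinity nitrate carriers had a row. Of 27 genes of nitrogen assimilation and ammonium uptake, 3 (11.1%) were listed. ASN1, an asparagine synthetase, had 39.8 FPKM in pkl and 196 FPKM in WT, 4.94-fold lower. GLU1, the ferredoxin-dependent glutamate synthase, and GLN2, the plastid glutamine synthetase, were 1.31-fold and 1.21-fold lower. Nitrate reductase (NIA1, NIA2) and nitrite reductase (NIR1) had no row. Of the 9 OPT carriers, a separate family of oligopeptide transporters, only OPT7 (1 of 9, 11.1%) was listed, at 7.73 FPKM in pkl and 10.2 FPKM in WT.

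Some of the organ markers, 7 of 19 for root (36.8%) and 6 of 10 for leaf (60%), were listed as lower, against 14.8% of all tests. Root markers without a row included SCR, SHR and EXPA7, and leaf markers without one were RBCS1A, CA1, GAPA and RCA. The direction of all markers without a row was not analysed. Lower root markers included the triterpene enzyme gene THAD (3.30-fold lower in pkl), the iron carrier gene IRT1 (2.04-fold) and the Casparian strip gene CASP1 (1.94-fold). Among leaf markers, the antenna genes LHCB2.1 (2.43-fold), LHCB1.4 (2.2-fold), LHCA4 (1.76-fold) and LHCA1 (1.72-fold) led. The median listed root marker was 1.94-fold lower and the median listed leaf marker 1.74-fold lower, both more than the 1.62-fold of the NPF members. No test of these differences was run.

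**Figure D5:**
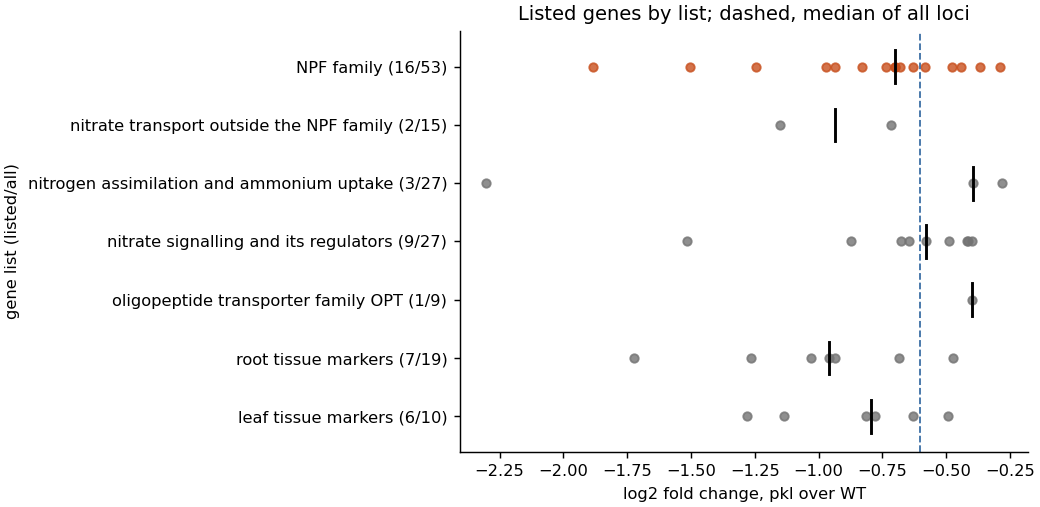
The log2 fold change of pkl over WT for each listed gene, by gene list, with the number listed of all genes in the list, a black bar at the median and a dashed line at the median of all 2896 loci. The NPF members spread from -0.29 to -1.89 around a median of -0.70, and genes without a row are not drawn.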

How the data were processed

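The tools named for the authors' processing are TopHat, Cufflinks 2.1.1 and Cuffdiff 2.1.1, with TAIR10 as genome build (submitters' processing notes). The authors deposited 1 FPKM value per genotype and locus, a log2 fold change, a p-value and a q-value, per the file headers. The deposited table also holds a signed test score, which was not used. Loci higher in pkl or not changed were not analysed here. The log2 fold change matched that computed from the FPKM values to within 1.2e-05.

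Rows were taken where the gene column, split at commas, held a member. The 16 rows each name 1 gene. NPF names follow the published nomenclature, and RefSeq (TAIR10.1) carries the same name for 27 of 53. Folds are WT over pkl. Starts are counted from 1. The number of tests was the whole number that made p over q give whole ranks (largest deviation 0.017 for 19554, and 0.311 for the next best). This was tested on 5 simulated tables and recovered in 5. Coordinates fitted TAIR10.1: 2740 of 2740 single-gene loci with an entry overlapped it. Coding identities came from global alignments (Biopython 1.88, MAFFT 7.526) and copies from BLAST+ 2.17.0. No protein sequences were used.

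With 1 value per genotype, no test across libraries was run and the calls are those of the authors. Strandedness is not given in the sources used here. Every member with a row is named, and in each other list up to 4 listed genes with the largest fold are given with values. The value of 1 root marker is not reported here. The members and lists were chosen with earlier results of these data known. Alternatives were a q-value under 0.01, a 2-fold minimum, minimum levels, pseudocounts of 0.1 and 1 FPKM and the removal of merged loci. The removal of loci whose interval reaches another annotated gene was added after seeing the data.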

Additional observations from a re-analysis of the deposited data

How the results depend on the processing

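Of the 16 listed members, 12 were left at a q-value under 0.01 (11% of all tests passed it), 14 with at least 1 FPKM in WT, 9 with at least 5 FPKM in WT, and 3 with a minimum of 2-fold. With that minimum and a pseudocount of 1 FPKM, added after seeing the data, 1 was left. No row of the 16 members merged several gene names. Without the 4 loci whose interval reaches another annotated gene (NPF5.10, NPF5.16, NPF7.3 and NPF8.2), 12 were left. The median log2 fold change of -0.70 became -0.69 with a pseudocount of 0.1 FPKM, -0.56 with one of 1 FPKM, -0.69 with at least 1 FPKM in WT, -0.68 with at least 5 FPKM in WT and -0.69 without those 4 loci. All 16 members stayed lower with either pseudocount, but with 1 FPKM the log2 fold change shrank by over 1.5 times for 5 members, NPF2.3, NPF5.7, NPF5.12, NPF6.4 and NPF8.2, all under 5 FPKM in WT. Leaving out each replicate was not run, as the libraries of a genotype are combined. No paired analysis was possible because each genotype has a single FPKM for a locus. The depth of the libraries is unknown, so the precision of low FPKM values cannot be given.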

Other observations

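Protein-coding genes directly next to a member and outside the family were counted after the groups had been seen. Members with another member on both sides have none. Which of the neighbours had been tested is not known, and all are counted. Of 18 such neighbours, of 12 of the 16 listed members, 4 (22.2%) were themselves listed as lower in pkl, and of 62 neighbours of 34 of the 37 members without a row, 4 (6.45%) were, against 14.8% of all tests. The difference was not tested. The group NPF5.10, NPF5.16 and NPF5.15 is flanked by listed genes on both sides, PATL2, a patellin with 122 FPKM in pkl and 163 FPKM in WT, and AGL87, a MADS-box gene with 16.1 FPKM in pkl and 37.2 FPKM in WT. These 5 protein-coding genes are consecutive in the annotation, and all 5 were lower in pkl, by 1.29-fold to 2.31-fold. Among them, NPF5.10 and NPF5.16 are listed with the same interval.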
